A study of Mus musculus with 36 samples.

Results

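Dlk1 and Meg3 are neighbours in an imprinted locus of mouse chromosome 12, and their transcript levels in quadriceps muscle were followed here from 1 to 20 weeks of age in 2 mouse strains with muscular dystrophy. They were found by gene symbol in the annotation of the array: each had 1 oligonucleotide, printed as 2 spots whose values were averaged, so the pair makes up 2 of the 8129 oligonucleotides and 2 of the 6540 genes with a symbol. Both genes were selected on their log2 ratios of later ages to 1 week in these same data, so their levels by age are given as a description without a test. Tests are given for the timing of Dlk1 against that of Meg3, and for BSG against GSG. Both are computed from those same ratios, as differences between the genes or between the strains, so they are not independent of the choice. Earlier results of these data, strain comparisons among them, were known when genes and tests were chosen.

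BSG mice lack beta-sarcoglycan and GSG mice lack gamma-sarcoglycan, both subunits of the complex that anchors dystrophin in the muscle membrane. Every mouse carried 1 of these deficiencies, healthy muscle is not analysed here, and littermates were used for most ages. The authors state that the hour of sacrifice was thus alike within a strain and age but varied between ages and between strains. Each strain was sampled at 1, 2.5, 4 and 6 weeks, every 2 weeks from 8 to 14 weeks, and at 20 weeks, with 2 mice per age, 36 mice in all. RNA was co-hybridised on 36 two-colour arrays in 4 closed loops of 9 (BSG loop 1, BSG loop 2, GSG loop 1 and GSG loop 2). In a loop each mouse was set against the mouse of the preceding age, and a closing array set the 1-week mouse against the 20-week mouse. Every value below is a log2 ratio between mice, so no level can be compared between the genes or between the strains, and the identity of the tissue cannot be checked by the level of muscle genes. In whole muscle, fewer cells that hold a transcript and less transcript per cell cannot be told apart.

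Dlk1 is a membrane protein of the Notch ligand family, also known as preadipocyte factor, that is made from the paternal allele, restrains the differentiation of fat precursors, and is abundant in fetal tissues and developing muscle before it declines after birth. Meg3, formerly Gtl2, is a long noncoding RNA made from the maternal allele of the same locus. Their opposite imprints are set by a methylated control region that lies between them, and in the callipyge sheep an excess of Dlk1 from this locus enlarges the muscles of the hindquarters.

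The promoter windows of both genes are printed because 2 transcripts of a shared imprinted locus were low together. RefSeq (GRCm38.p6) places the 2 starts 88173 bases apart on the plus strand. Each window runs from 250 bases before to 50 bases after the start of the transcript, at chr12:109452573-109452872 for Dlk1 and at chr12:109540746-109541045 for Meg3. Capitals mark matches, on either strand, of TATAAA (the TATA box), GGGCGG (the GC box), CCAAT (the CAAT box), TGCCGC (the core bound by mouse Zfp57) or TGGGAA (the core bound by Rbpj).
Dlk1: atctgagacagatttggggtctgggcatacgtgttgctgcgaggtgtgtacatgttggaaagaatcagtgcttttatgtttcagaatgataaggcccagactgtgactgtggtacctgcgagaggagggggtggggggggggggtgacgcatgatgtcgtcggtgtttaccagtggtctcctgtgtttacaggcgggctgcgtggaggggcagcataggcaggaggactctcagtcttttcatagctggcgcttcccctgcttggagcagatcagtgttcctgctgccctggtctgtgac
Meg3: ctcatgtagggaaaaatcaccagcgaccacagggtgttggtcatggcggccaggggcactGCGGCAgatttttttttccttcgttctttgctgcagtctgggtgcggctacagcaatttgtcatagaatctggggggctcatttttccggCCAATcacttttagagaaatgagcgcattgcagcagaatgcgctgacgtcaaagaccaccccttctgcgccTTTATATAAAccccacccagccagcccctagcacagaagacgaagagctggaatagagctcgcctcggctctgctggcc
The Dlk1 window held none of these motifs and no E box (CANNTG). The Meg3 window held TATAAA on both strands in an overlapping run at positions -29 to -20 from the start, CCAAT at -100 to -96 and TGCCGC on the reverse strand at -190 to -185. Of all 32851 promoter windows of the same length, 13.6% held TATAAA, 35.7% GGGCGG, 37.4% CCAAT, 11.6% TGCCGC, 25.6% TGGGAA and 72.3% CANNTG. The Dlk1 window had 9 CG pairs and the Meg3 window 13, against a median of 7 over all windows, with 55.7% and 53.7% G or C against a median of 52.7%. RefSeq lists another start for Meg3, whose window at chr12:109545148-109545447 had 1 CG pair. A match is a description of the letters and not a site of binding.

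The sign of the ratios was not stated with the files. It was read as later age over preceding age because the later age is given as the Cy5 channel, and this direction is likely rather than settled. Of 23 measured genes known to be high in newborn muscle, Dlk1 and Meg3 left out, 18 lay below 0 at 20 weeks in BSG and 19 in GSG, with medians of -0.19 and -0.40, against medians of -0.02 and -0.01 over all oligonucleotides. By limma with Benjamini-Hochberg adjustment 3 of the 23 were called lower and 0 higher in each strain, beside 0.849% lower and 0.431% higher among all oligonucleotides in BSG, and 3.03% and 0.713% in GSG. The BSG count was 0 with scaled arrays or without BSG loop 1. With the sign turned, each lower value below would be a higher value of the same size.

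Dlk1 was lower than at 1 week in all 32 later mice. In BSG loop 1 the Dlk1 log2 ratio to the 1-week mouse was -2.15, -3.00, -2.92 and -2.80 at 2.5, 4, 6 and 8 weeks, and -2.66, -2.43, -3.47 and -3.29 at 10, 12, 14 and 20 weeks. In BSG loop 2 the Dlk1 ratio at the same ages was -1.22, -1.70, -2.73, -2.67, -2.25, -2.53, -2.82 and -2.80. Both BSG profiles were near their final level at 6 weeks but lay higher again later, at -2.43 at 12 weeks in loop 1 and -2.25 at 10 weeks in loop 2. Loop 1 was the lower of the 2 at 7 of the 8 ages. In GSG loop 1 the Dlk1 ratio was -1.32, -1.91, -1.91, -2.18, -2.37, -2.83, -2.92 and -3.11. In GSG loop 2 it was -1.03, -1.43, -2.16, -2.75, -3.32, -3.51, -3.68 and -3.97. The GSG mice of both loops were lower at every successive age except from 4 to 6 weeks in loop 1, where both ages read -1.91.

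Meg3 was also lower than at 1 week in all 32 later mice, by less than Dlk1 at the oldest ages. The Meg3 log2 ratio at the same ages was -1.57, -0.55, -1.65, -0.29, -0.97, -0.86, -0.999 and -1.89 in BSG loop 1. In BSG loop 2 it was -1.22, -2.20, -2.42, -1.75, -2.08, -2.23, -2.22 and -2.22. The 2 BSG mice of an age differed most at 4 weeks, by 1.65, and loop 1 lay above loop 2 at 7 of the 8 ages. In GSG loop 1 the Meg3 ratio was -0.99, -1.19, -2.48, -2.21, -1.99, -2.12, -2.07 and -2.27. In GSG loop 2 it was -1.24, -1.42, -1.96, -1.81, -2.57, -2.69, -2.84 and -3.23. The median gap between the 2 mice of an age was 0.45 for Dlk1 and 1.17 for Meg3 in BSG, and 0.62 for Dlk1 and 0.55 for Meg3 in GSG, so Meg3 in BSG was the least repeatable of the 4 profiles.

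**Figure D1:**
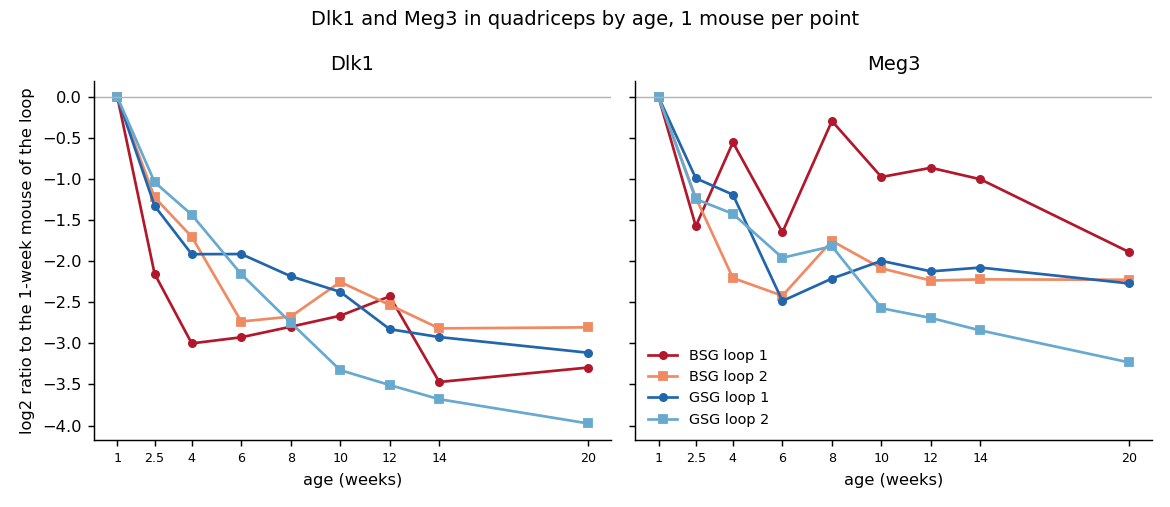
Log2 ratio of Dlk1 (left) and Meg3 (right) to the 1-week mouse of the same loop (y axis) by age in weeks (x axis), with 1 point per mouse, the 4 loops in colour, and lines joining different mice of a loop. All later mice lie below 0, Dlk1 reaches -3.97 in GSG loop 2, and Meg3 of BSG loop 1 returns to -0.29 at 8 weeks.

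Over the 2 loops of a strain, Dlk1 was 3.22-fold lower at 2.5 weeks and 8.27-fold lower at 20 weeks than at 1 week in BSG (log2 -1.69 ± 0.24 and -3.05 ± 0.24, SE of the fit, n = 2 mice per age). In GSG it was 2.26-fold and 11.7-fold lower (log2 -1.18 ± 0.24 and -3.54 ± 0.24). Meg3 was 2.63-fold and 4.15-fold lower in BSG (log2 -1.40 ± 0.33 and -2.05 ± 0.33), and 2.16-fold and 6.72-fold lower in GSG (log2 -1.11 ± 0.33 and -2.75 ± 0.33). Among all 8129 oligonucleotides, Dlk1 had the lowest ratio to 1 week at every age from 4 to 20 weeks in BSG and at 14 and 20 weeks in GSG. Meg3 ranked 4 from the lowest at 20 weeks in BSG and 5 in GSG. These ranks describe the values that chose the genes. For background, 69 oligonucleotides (0.849%) were called lower and 35 (0.431%) higher at 20 weeks than at 1 week in BSG, and 246 (3.03%) and 58 (0.713%) in GSG. At the ages from 4 to 14 weeks 0.0123% to 0.0246%, that is 1 or 2 of 8129, were called lower and none higher in BSG. Dlk1 and Meg3 are counted in all of these shares, so shares of so few can be made up by the members themselves. In GSG 0.0492% were called lower at 10 weeks, 0.123% at 12 weeks and 0.283% at 14 weeks, with 0.0123% higher at 12 weeks and 0.0738% at 14 weeks.

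The order of the 9 ages differed between the genes and strains. Dlk1 in GSG was ordered by age throughout, with 20 weeks lowest. Dlk1 in BSG was highest at 1, 2.5 and 4 weeks, then at 10, 12, 8, 6 and 20 weeks, and lowest at 14 weeks. Meg3 in BSG was highest at 1 week, followed by 8, 4, 2.5, 10, 12, 14 and 6 weeks, and lowest at 20 weeks, whereas Meg3 in GSG departed from the order of age only in that 8 weeks lay above 6 weeks. Of the 8 steps between neighbouring ages, those over 2 SE were the steps into 2.5, 4, 6 and 14 weeks for Dlk1 in BSG, and into 2.5 and 4 weeks for Dlk1 in GSG. For Meg3 they were the steps into 2.5 and 8 weeks in BSG and into 2.5 and 6 weeks in GSG. All other neighbouring ages differed by less than 2 SE. The Dlk1 step into 6 weeks in BSG was 0.07 in loop 1 and -1.03 in loop 2, so only loop 2 fell there.

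The spots themselves were precise. The 2 Dlk1 spots correlated at 0.97 over the 36 arrays and the 2 Meg3 spots at 0.98, with an SD of a spot of 0.21 for Dlk1 and 0.14 for Meg3, against a median of 0.27 over all oligonucleotides. The largest disagreement was in Dlk1 on the array of 20 against 14 weeks of GSG loop 2, where the 2 spots differed by 1.01. On 9 arrays the duplicate spots of all oligonucleotides correlated below 0.3. BSG loop 1 and GSG loop 1 had 4 such arrays each, all 4 of BSG loop 1 falling between 6 and 14 weeks, and GSG loop 2 had 1.

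The 2 routes from 1 to 20 weeks agreed less well for Meg3 than for Dlk1. For Dlk1 the closing array gave a log2 ratio of 20 weeks over 1 week of -3.23, -2.84, -3.18 and -4.04 in BSG loop 1, BSG loop 2, GSG loop 1 and GSG loop 2, and the sum of the 8 other arrays gave -3.82, -2.53, -2.56 and -3.44. For Meg3 the closing array gave -2.08, -2.30, -2.32 and -3.53, and the sum of the 8 other arrays gave -0.30, -1.65, -1.83 and -0.80. The fitted 20-week values of both genes lay close to the closing array, 1 per loop. In the same order of loops they were -3.29, -2.80, -3.11 and -3.97 for Dlk1. For Meg3 they were -1.89, -2.22, -2.27 and -3.23. Without the closing arrays the 20-week values of Meg3 were -0.97 in BSG and -1.32 in GSG, against -3.18 and -3.00 for Dlk1. In GSG loop 2 the gap of 2.73 between the Meg3 routes was exceeded by 7.60% of oligonucleotides, and in BSG loop 1 the gap of 1.79 was exceeded by 19.6%. A constant difference between the dyes cancels in the fitted values of a closed loop. It does not cancel in the sum of the 8 other arrays, where the later age was always the Cy5 channel, nor in any value without the closing arrays. Its part in these gaps was not tested.

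Timing was compared as the share of each gene's own log2 change from 1 to 20 weeks that had been reached at an age, which takes out the larger change of Dlk1. At 2.5 weeks Dlk1 had covered 65.3% of its change in BSG loop 1, 43.5% in BSG loop 2, 42.5% for loop 1 of GSG and 26.0% for loop 2 of GSG. Meg3 had covered 83.3%, 55.0%, 43.5% and 38.4% in the same loops. Dlk1 was thus behind Meg3 in 4 of 4 loops, though in GSG loop 1 by only 0.96 percentage points. The mean difference, Dlk1 minus Meg3, was -10.7 ± 7.10 percentage points (SD, n = 4 loops). An exact two-sided sign-flip permutation test gave p = 0.125, adjusted 0.50 over the ages 2.5, 4, 6 and 8 weeks, and 0.125 is the smallest p that 4 loops allow, so this design cannot pass 0.05. The test counts the 4 loops as independent, although the loops of a strain can share litter and hour of sacrifice at an age. With the first spots alone, and on the linear scale, Dlk1 was behind in 3 of 4 loops.

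At 4 and 8 weeks the sign was the opposite, and at 6 weeks Dlk1 was again behind on average. At 4 weeks the difference was 6.16 ± 42.1 percentage points with 2 loops on either side of 0 (exact p = 0.75, adjusted 0.75), and without BSG loop 1 it was -12.4. At 6 weeks it was -16.0 ± 22.0 (Dlk1 behind in 3 of 4 loops, exact p = 0.25, adjusted 0.50). With the mean of 12, 14 and 20 weeks as the whole change the 6-week difference was -26.0 ± 21.0, and without the closing arrays it was -108 ± 110, each with Dlk1 behind in 4 of 4 loops (exact p = 0.125). The value without the closing arrays is inflated by a small divisor. The Meg3 change in BSG loop 1 was then only -0.30, which put its share at 353%. At 8 weeks the difference was 17.9 ± 39.8 (Dlk1 ahead in 3 of 4 loops, exact p = 0.50, adjusted 0.67). In the main analysis the spread between loops exceeded the mean at each of these 3 ages. By 14 weeks Dlk1 had covered 98.1 ± 5.95% and Meg3 83.1 ± 20.7% of the change (SD, n = 4 loops), with Meg3 of BSG loop 1 at 53.0%.

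The midpoint age, at which 50% of the 20-week change was first reached by linear interpolation, is given for each loop. For Dlk1 it was 2.15 weeks in BSG loop 1, 3.07 in BSG loop 2, 3.09 for loop 1 of GSG and 5.53 for loop 2 of GSG. For Meg3 it was 1.90, 2.36, 3.61 and 4.73 weeks. Meg3 reached its midpoint earlier than Dlk1 in 3 of 4 loops and later in GSG loop 1. Meg3 reached it earlier in both BSG loops than in either GSG loop. In BSG loop 1 this was a first crossing that did not last. Meg3 was back at 29.1% of its change there at 4 weeks, 15.3% at 8 weeks and 45.6% at 12 weeks. For Dlk1 BSG loop 2 (3.07) and GSG loop 1 (3.09) were nearly level, and their order turned on the linear scale (2.13 in BSG loop 2, 2.10 in GSG loop 1) and with the mean of 12, 14 and 20 weeks as the whole change (2.93 and 2.89). For the fit over both loops it was 2.36 weeks in BSG and 4.55 weeks in GSG for Dlk1, and 2.10 and 4.16 weeks for Meg3. As a share of the fall on the linear scale, where a 2-fold drop is already 50% of a complete loss, the midpoints of the 2 genes drew together: they ranged from 1.87 to 2.37 weeks for Dlk1 and from 1.82 to 2.20 weeks for Meg3.

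**Figure D2:**
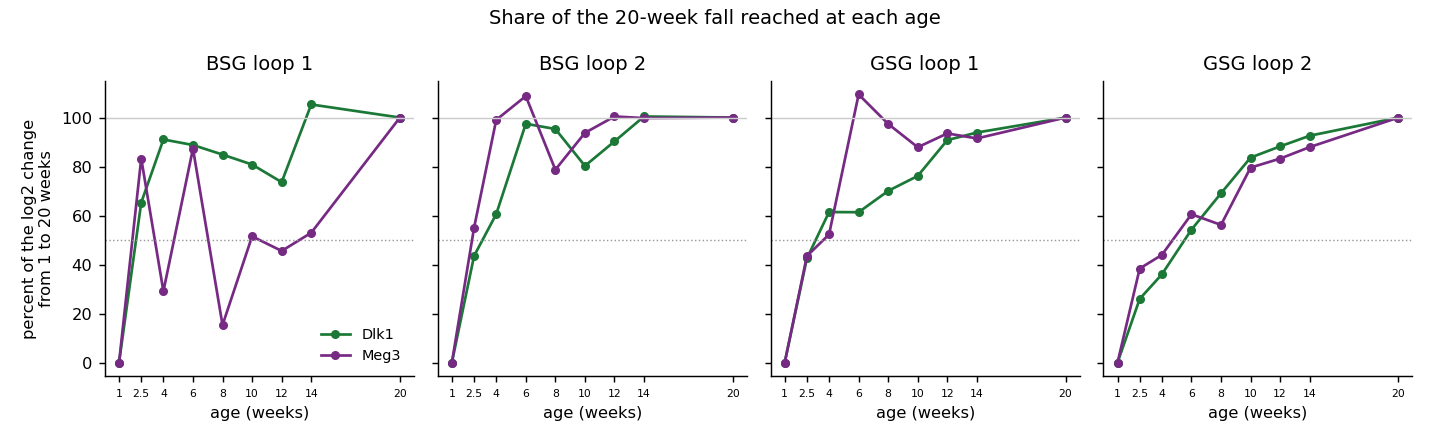
Percent of the log2 change from 1 to 20 weeks reached (y axis) by age in weeks (x axis) for Dlk1 and Meg3, in 1 panel per loop, with a dotted line at 50%. At 2.5 weeks Dlk1 lies below Meg3 in 4 of 4 loops, and Meg3 of BSG loop 1 drops back to 15.3% at 8 weeks.

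At the steps into 8, 14 and 20 weeks the difference between the 2 transcripts had the same sign in 4 of 4 loops, and the step from 6 to 8 weeks was singled out after its values were seen. Meg3 at 8 weeks was above its level at 6 weeks by 1.36 in BSG loop 1, 0.67 in BSG loop 2, 0.27 for loop 1 of GSG and 0.14 for loop 2 of GSG (log2). Dlk1 changed by 0.13, 0.06, -0.27 and -0.59 over the same step. The Dlk1 step lay below the Meg3 step in 4 of 4 loops, by 0.78 ± 0.31 on average (SD, n = 4; exact sign-flip p = 0.125, adjusted 0.33 over the 8 steps, and 0.125 is again the smallest p possible). This test too counts the 4 loops as independent, although the loops of a strain can share litter and hour of sacrifice at an age. The part of litter and hour in this step was not tested. The 4 arrays that set 8 against 6 weeks directly read 1.56, 0.74, 0.33 and 0.44 for Meg3, and the 2 spots differed there by at most 0.27. The fitted Meg3 step in BSG was 1.01 ± 0.33 and ranked 20 of 8129 from the highest. The arrays of this step in BSG loop 1 and GSG loop 1 are among the 9 with discordant duplicate spots. Without those 9 arrays, only loop 2 of each strain set 8 against 6 weeks directly. The Meg3 step was then 0.63 in BSG and 0.44 in GSG, the GSG value being that of the single array of GSG loop 2.

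**Figure D3:**
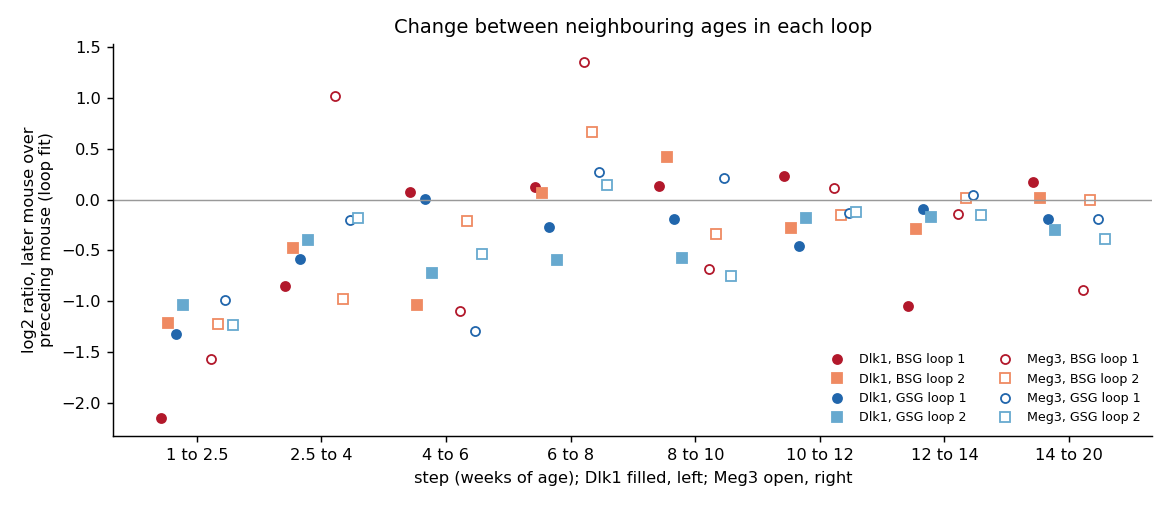
Log2 ratio of each mouse to the mouse of the preceding age in its loop (y axis, fitted within the loop) for the 8 steps between neighbouring ages (x axis), with Dlk1 as filled and Meg3 as open symbols. From 6 to 8 weeks all 4 Meg3 values lie above 0, from 0.14 to 1.36, and above the Dlk1 value of the same loop.

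The log2 ratios to 1 week chose both genes and come from different oligonucleotides, so their sizes are set side by side without a test. At 2.5 weeks the log2 ratio of Dlk1 was -1.43 ± 0.49 and that of Meg3 -1.25 ± 0.24 (mean ± SD, n = 4 loops), with Dlk1 the lower in 2 of 4 loops. At 20 weeks they were -3.30 ± 0.50 and -2.40 ± 0.58, and Dlk1 was the lower in 4 of 4 loops. Dlk1 was the lower in 4 of 4 loops at 10, 12 and 14 weeks too.

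BSG and GSG could be compared only in their change since 1 week. By limma, the BSG minus GSG difference of Dlk1 was -0.51 ± 0.34 at 2.5 weeks, -0.68 ± 0.44 at 4 weeks, -0.80 ± 0.50 at 6 weeks, -0.27 ± 0.53 at 8 weeks, 0.39 ± 0.53 at 10 weeks, 0.69 ± 0.50 at 12 weeks, 0.16 ± 0.44 at 14 weeks and 0.49 ± 0.34 at 20 weeks (log2 ± SE). The Dlk1 estimates were below 0 up to 8 weeks and above 0 from 10 weeks on, but leaving out 1 loop turned the sign at 8 weeks (0.012 without GSG loop 1), 10 weeks (-0.085 without GSG loop 2) and 14 weeks (-0.22 without GSG loop 2, -0.17 without BSG loop 2). For Meg3 the difference was -0.28 ± 0.47 at 2.5 weeks, -0.07 ± 0.63 at 4 weeks, 0.19 ± 0.71 at 6 weeks, 0.99 ± 0.75 at 8 weeks, 0.75 ± 0.75 at 10 weeks, 0.86 ± 0.71 at 12 weeks, 0.85 ± 0.63 at 14 weeks and 0.69 ± 0.47 at 20 weeks. None of these 16 differences passed the test (unadjusted p from 0.126 to 0.908; adjusted p of 0.84 at 20 weeks for both genes and above 0.99 at the other ages), and at no age did any oligonucleotide pass (0%).

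**Figure D4:**
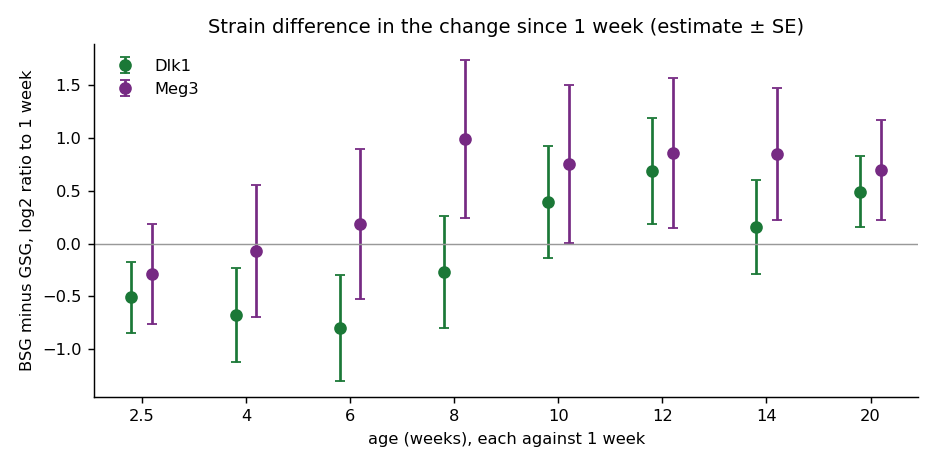
Difference BSG minus GSG in the log2 ratio to 1 week (y axis, estimate ± SE, n = 2 loops per strain) at each later age (x axis) for Dlk1 and Meg3. The Dlk1 estimate is -0.80 at 6 weeks and 0.49 at 20 weeks, and no estimate passes the test.

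The change of Dlk1 from 2.5 to 20 weeks, a contrast picked with the profiles known, was -1.36 in BSG and -2.36 in GSG. The difference of 1.00 ± 0.44 had an unadjusted p of 0.033 and an adjusted p of 0.999, and over the alternatives it ran from 0.43 to 1.58 (unadjusted p from 0.0072 to 0.47, adjusted from 0.73). For Meg3 the same change was -0.66 in BSG and -1.64 in GSG, a difference of 0.98 ± 0.63 (limma unadjusted p of 0.131, adjusted p of 0.999). Dlk1 was above its preceding age in both BSG mice and below it in both GSG mice at 8, 10 and 20 weeks. The BSG minus GSG difference of these steps was 0.52 ± 0.34, 0.66 ± 0.34 and 0.34 ± 0.34 (limma unadjusted p of 0.130, 0.059 and 0.325, all adjusted above 0.99). Their signs picked these 3 steps, so the p-values are a description. In the fit over both loops, Dlk1 fell more in BSG than in GSG at the steps into 2.5, 4, 6 and 14 weeks. Into 14 weeks the steps were -0.66 in BSG and -0.13 in GSG. The single loops of the strains overlapped at the steps into 2.5, 4 and 6 weeks. Into 6 weeks they read 0.07 and -1.03 in loops 1 and 2 of BSG, and 0.002 and -0.72 in those of GSG. Over whole profiles, a temporal Hotelling test with a polynomial of degree 2 on the array log ratios gave an unadjusted p of 0.241 for Dlk1 and 0.486 for Meg3, and the non-temporal test gave 0.186 and 0.759, none below 0.05 after adjustment in the fit across all oligonucleotides. Leaving out GSG loop 1 lowered the temporal p of Dlk1 to 0.028 (adjusted 0.46), and leaving out GSG loop 2 raised it to 0.75.

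On the 8 arrays that hold a 1-week mouse, the shared sign of Dlk1 and Meg3 follows from how the genes were chosen. On the 28 arrays between later ages they had the same sign on 13, with a Pearson correlation of -0.11 and a Spearman correlation of -0.03, given as a description because arrays of a loop share mice. The ranks over all 36 arrays lean on the arrays with a 1-week mouse and are likewise a description. By them, the 6 genes most like Dlk1 were Thbs3 (thrombospondin 3, r = 0.889), Ndn (necdin, an imprinted gene, 0.875), Gpc3 (glypican 3, 0.865), Maged2 (0.861), Kcne1l (0.858) and Fbp2 (muscle fructose bisphosphatase, 0.855), with Meg3 at rank 15 of 6751 (0.827). The 6 most like Meg3 were Dlk1 itself (0.827), Lama2 (laminin alpha 2, 0.823), Gpc3 (0.794), Slc7a9 (an amino acid transporter subunit, 0.790), Peg3 (an imprinted zinc finger gene, 0.788) and Cep131 (a centrosomal protein, 0.781). Over the 28 arrays without a 1-week mouse, 0 of the 6 genes stayed among the 6 most like Dlk1 and 1 of 6 (Cep131) among those most like Meg3, and Dlk1 was at rank 4804 of 6751 for likeness to Meg3. The 3 genes most like Meg3 there were Taf1a (0.804), Per2 (a clock gene, 0.791) and Cep131 (0.748). For Dlk1 they were Adcy8 (0.635), Gkap1 (0.633) and Rnf5 (0.621).

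Of the genes around Dlk1 and Meg3 on the fixed list, only Yy1, a zinc finger regulator, and Wars, a tryptophanyl-tRNA synthetase, were measured. At 20 weeks against 1 week, Yy1 was at 0.08 ± 0.15 in BSG and -0.27 ± 0.15 in GSG, and Wars at -0.09 ± 0.31 and -0.05 ± 0.31 (log2 ± SE, adjusted p from 0.44 to 0.99). At 2.5 weeks Yy1 was at -0.14 ± 0.15 in BSG and -0.45 ± 0.15 in GSG, and Wars at -0.16 ± 0.31 and -0.31 ± 0.31, again with none called. The difference between these genes and Dlk1 or Meg3 was not tested.

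Imprinted genes elsewhere in the genome included several that were low with age. Of 40 measured, 5 were called lower and 0 higher at 20 weeks in BSG, and 6 lower and 0 higher in GSG, beside the 0.849% and 3.03% of all oligonucleotides, and the medians were -0.06 and -0.17 against -0.02 and -0.01. Without GSG loop 2 the GSG count was 3, without BSG loop 1 the BSG count was 0, and with scaled arrays or without the 9 discordant arrays the BSG count was 1. The genes called in both strains were Mest, Ndn, H19, Cdkn1c (a cell cycle inhibitor) and Plagl1 (a zinc finger regulator), and Peg3 was called in GSG only. Their 20-week log2 ratios ranged from -2.30 in Ndn to -1.11 in Plagl1 in BSG, and from -2.66 in Mest to -2.12 in Cdkn1c in GSG, with Peg3 at -1.36. Plagl1 in BSG was at -0.32 in loop 1 and -1.90 in loop 2, and its BSG call was lost without either loop. Igf2, the fetal growth factor that neighbours H19, was at 0.21 ± 0.23 in BSG and 0.03 ± 0.23 in GSG (adjusted p of 0.90 and 0.99). Snrpn was at 0.49 and 0.67 and Cd81 at -0.73 and -0.55, none past the test.

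**Figure D5:**
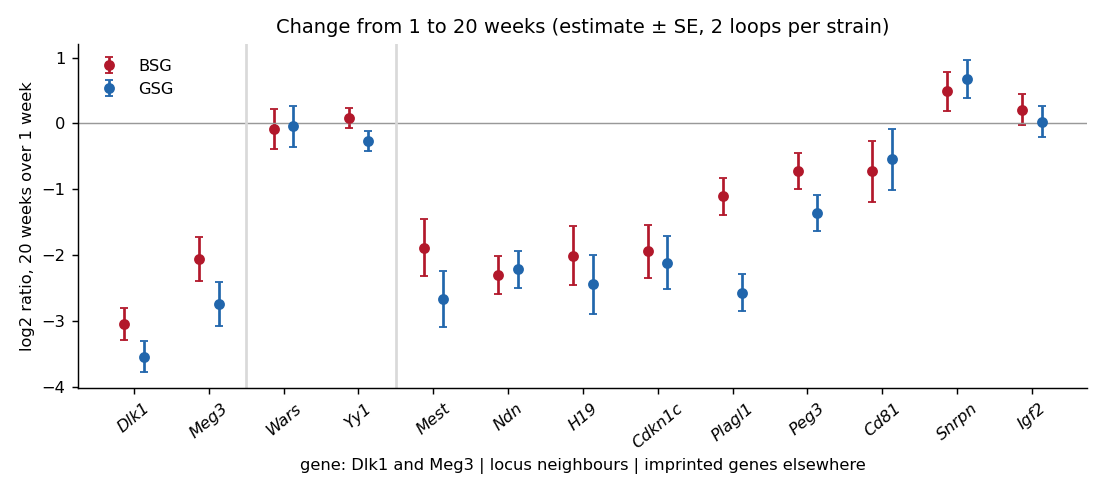
Log2 ratio of 20 weeks to 1 week (y axis, estimate ± SE, 2 loops per strain) in BSG and GSG for Dlk1 and Meg3, for the measured neighbours Wars and Yy1, and for imprinted genes elsewhere (x axis). Dlk1 is at -3.05 in BSG and -3.54 in GSG, Meg3 at -2.05 and -2.75, and Wars, Yy1 and Igf2 lie between -0.27 and 0.21.

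The share of the 20-week change reached at 2.5 weeks was 55.3% for Dlk1 and 68.0% for Meg3 in BSG, and 33.3% and 40.5% in GSG (from the fit over both loops). In BSG it was 65.9% for Plagl1, 56.6% for Mest, 45.7% for Ndn, 29.2% for Cdkn1c and 21.4% for H19. In GSG it was 48.1%, 58.5%, 51.5%, 27.7% and 23.9% in the same order. Of these genes H19 and Cdkn1c had the lowest shares in both strains, below Dlk1 and Meg3. Their change at 2.5 weeks was small against its SE (H19 -0.43 ± 0.45 in BSG and -0.58 ± 0.45 in GSG). At 2.5 weeks 0 of the 40 imprinted genes were called in either strain. Of all 8129 oligonucleotides, Dlk1 and Meg3 included, 1 was called lower in BSG (0.0123%) and 8 in GSG (0.0984%).

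Of the Notch pathway, to which Dlk1 is related, few genes were called. Of 28 measured, Notch3, a receptor of vascular smooth muscle, was called lower at 20 weeks in BSG (-0.87 ± 0.21, adjusted p = 0.036) and GSG (-0.78 ± 0.21, 0.035), and Heyl, a Notch target, in GSG (-0.75 ± 0.19, 0.025). The counts were thus 1 of 28 and 2 of 28 with 0 higher, beside 0.849% and 3.03% of all oligonucleotides, and the medians were -0.17 and -0.15. The Notch3 call was lost under 8 alternatives in each strain and the Heyl call under 5. Dll1, a Notch ligand, was at -0.04 ± 0.25 in BSG and -0.87 ± 0.25 in GSG (adjusted p of 0.99 and 0.051). Of 22 measured genes of adipogenesis, which Dlk1 restrains, 0 were called in either strain, with medians of 0.21 and -0.08. Adiponectin (Adipoq) was at 0.67 ± 0.18 in BSG and 0.18 ± 0.18 in GSG (adjusted p of 0.063 and 0.77). Of 19 measured factors that set or read imprints, 0 were called in BSG and 1 lower in GSG, the DNA methyltransferase Dnmt3b (-0.74 ± 0.21, adjusted p = 0.048), beside 3.03% of all oligonucleotides, and this call was lost under 8 alternatives.

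Most markers of the cell types that quadriceps muscle could hold did not pass the test, and the counts below stand beside 0.849% lower and 0.431% higher among all oligonucleotides in BSG, and 3.03% and 0.713% in GSG. Of 18 measured genes of satellite cells and myoblasts, Spry1, which keeps satellite cells quiescent, was called lower in BSG (-0.94 ± 0.23, adjusted p = 0.038) and GSG (-1.17 ± 0.23, 0.003), with list medians of -0.14 and -0.11. Of 9 measured genes of fibroblasts and mesenchymal progenitors, the collagen chain Col1a1 was called lower in BSG (-1.66 ± 0.37, adjusted p = 0.024) and GSG (-2.13 ± 0.37, 0.001), Postn (periostin) lower in GSG (-2.16 ± 0.42, 0.003) and S100a4 higher in GSG (2.55 ± 0.47, 0.002), with list medians of -0.07 and -0.18. Of 8 macrophage genes all 8 lay above 0 in both strains, with medians of 1.21 and 1.502, and 0 were called higher in BSG and 5 in GSG (0 without GSG loop 2), led by Cd74 (2.28 ± 0.33). The 6 endothelial genes had medians of -0.44 and -0.64, the 4 erythroid genes -0.46 and -0.22, the 6 genes of Schwann cells and nerve -0.12 and -0.16, the 4 adipocyte genes 0.38 and 0.10, and the 6 genes of the muscle fibre 0.28 and 0.37, with Pmp22 called lower in both strains and Alas2 in GSG. The part of such shifts in cell make-up in the values of Dlk1 and Meg3 was not tested.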

How the data were processed

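Quadriceps RNA from 36 mice was amplified to cRNA, labelled with Cy5 or Cy3 and hybridised to 36 two-colour arrays. The deposited values are log ratios of the 2 channels, which the authors normalised with the smida package (its function all.norm) for spatial trends, dye and array. The base of the logarithm is not given in the sources used here, and the deposited log2 scale is an assumption, as is the direction. Of 16416 spots, 8208 pairs were averaged, and the 80 Gapdh pairs were pooled, which left 8129 oligonucleotides, of which 6752 had 1 symbol, 7 several and 1370 none. No value was missing, and no filter on dim spots could be applied. The number of arrays, with 2 mice per age and strain, limits the precision, and duplicate spots correlated from -0.096 to 0.765 across arrays.

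Mouse values relative to 1 week came from least squares within each loop. Strain estimates came from limma 3.58.1 in R 4.3.3 on all 36 arrays, with 8 age parameters per strain and Benjamini-Hochberg adjustment over 8129 oligonucleotides at 0.05. The estimates carry their largest SE at mid-loop ages. The temporal Hotelling test followed the equations of the methods, on the array log ratios (3 and 30 degrees of freedom). Its non-temporal counterpart used the 8 later ages relative to 1 week as its parameters (8 and 20 degrees of freedom), where the methods name the number of time points. In simulated loops of 8129 oligonucleotides the limma fit was checked for 20 weeks against 1 week in BSG. It recovered 71 of 100 falls of 1 and 100 of 100 falls of 2 on the log2 scale. The SE of that comparison is among the smallest, and the simulated noise was mostly below the SD of Meg3 (0.50). These counts therefore do not extend to mid-loop ages or to Meg3. Loops of a strain hold different mice, and the numbers of loops do not pair BSG with GSG. The members, gene lists and tests were chosen with earlier results of these data known. Named genes were Dlk1, Meg3, the measured locus genes, the 6 genes most correlated with each member, the 8 imprinted genes of largest change with Igf2 and H19, and up to 3 genes per other list with the smallest adjusted p. The 3 genes most like each member over the arrays without a 1-week mouse are named as well. The alternatives were array centring and scaling, single spots, leaving out each loop or the 9 arrays of discordant spots, a dye term, loops or spots as correlated blocks, each strain alone, other thresholds, and other definitions of the whole change. A list gene with several oligonucleotides was represented by whichever varied most in mean absolute ratio. No absolute intensity was used.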

Additional observations from a re-analysis of the deposited data

How the results depend on the processing

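The 20-week changes of Dlk1 and Meg3 kept their sign under every alternative run. Scaling the arrays to the same spread gave -2.34 for Dlk1 in BSG, -2.82 for Dlk1 in GSG and -1.60 for Meg3 in BSG. Without the closing arrays, an alternative chosen after seeing the data, Meg3 was -0.97 in BSG and -1.32 in GSG. With a loop left out, Dlk1 ranged from -3.29 to -2.80 in BSG and from -3.97 to -3.11 in GSG, while Meg3 ranged from -2.22 to -1.89 (BSG) and from -3.23 to -2.27 (GSG).

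The Dlk1 minus Meg3 share at 2.5 weeks stayed below 0 throughout, from -13.9 to -8.27 percentage points with a loop left out (smallest possible p 0.25), -20.3 with the mean of 12, 14 and 20 weeks as the whole change and -3.82 on the linear scale. It was below 0 in 4 of 4 loops in the main analysis and in 3 of 4 on the linear scale and with the first spot (-7.27). Without the closing arrays it was -129 ± 186, since the Meg3 change was then close to 0 in BSG loop 1. At 4 weeks it turned to -0.31 with scaled arrays, -12.4 without BSG replicate 1 (up to 21.0 without BSG replicate 2) and -20.6 without the closing arrays. Timing per loop could not be computed without the discordant arrays, which break 3 loops.

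The strain differences at 20 weeks stayed above 0 and never passed the test, from 0.06 to 0.93 for Dlk1 and from 0.21 to 1.18 for Meg3 with a loop left out (adjusted p from 0.50 to 1.00 over all alternatives). At other ages the sign turned with a loop left out. The Dlk1 range was -0.55 to 0.012 at 8 weeks, the upper value without GSG replicate 1, -0.085 to 0.87 at 10 weeks, the lower without GSG replicate 2, and -0.22 to 0.54 at 14 weeks, the lower without GSG replicate 2 (-0.17 without BSG replicate 2). The Meg3 range was -0.90 to 0.75 at 4 weeks, the upper without BSG replicate 2 (0.04 without GSG replicate 1), and -0.20 to 0.57 at 6 weeks, the lower without BSG replicate 1 (-0.08 without GSG replicate 1). Meg3 also turned to 0.0946 with the first spot and 1.45 without discordant arrays at 4 weeks, and to -0.27 with scaled arrays and -0.0026 with the second spot at 6 weeks. Loops as a random replicate block changed no call of Dlk1 or Meg3 and left 119 lower and 71 higher in BSG and 372 lower and 92 higher in GSG at 20 weeks. A dye term gave 141 and 79 in BSG and 98 higher in GSG. Spots as correlated duplicates gave 196 and 177 in BSG and 117 higher in GSG.

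Other counts of lower and higher oligonucleotides at 20 weeks in BSG were 11 and 3 at adjusted p under 0.01, 118 and 76 under 0.1, 9 and 1 with scaled arrays, 28 and 19 with the first spot, 31 and 11 with the second spot, 15 and 4 without discordant arrays, and 40 and 19 with each strain alone. In GSG they were 99 and 25 under 0.01, 374 and 92 under 0.1, 80 and 16 with scaled arrays, 107 lower with the first spot, 374 lower with the second spot, 27 higher without discordant arrays, and 152 lower with each strain alone. Leaving out loops moved them from 1 to 82 lower and from 0 to 184 higher in BSG, and from 58 to 344 lower and from 25 to 43 higher in GSG. The causes were not tested. Without BSG replicate 2, Postn in BSG was 0.19 (-1.20 without BSG replicate 1) and Dnmt3b 0.011. Calls of listed genes were the least stable for Plagl1 and Pmp22 in BSG, each lost under 10 alternatives. Notch3 in both strains and Dnmt3b in GSG were lost under 8.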
